A study of Mus musculus with 16 samples.

Results

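Endoderm genes were examined in mouse induced pluripotent stem (iPS) cells made with human artificial chromosome (HAC) vectors, in the embryonic stem (ES) cells they are set against, and in mouse embryonic fibroblasts (MEFs). The genes were the 9 whose name on the array was Gata4, Gata6, Sox7, Sox17, Foxa2, Hnf4a, Pdgfra, Dab2 or Afp, of 28482 gene names in all, and 20 of the 41174 array probes carried 1 of these names. The 16 arrays held 1 sample of C57BL/6 MEFs, the ES lines B6ES (C57BL/6) and TT2 (C57BL/6 x CBA), and the retroviral iPS line 20D17 (C57BL/6 x DBA). They also held 4 clones with iHAC1 (1-D6, 1-A3, 1-B and 1-C3), 4 with iHAC2 (2-N, 2-E, 2-B1 and 2-C6) and 4 iHAC-free lines. The vector iHAC1 carries 2 copies each of Klf4, c-Myc, Sox2 and Oct4, and iHAC2 adds an shRNA against p53, driven by the H1 promoter, and 2 more copies of Oct4. The reprogramming genes are driven by the CAG promoter. After transfer of the vector the recipient MEFs were also treated with microRNA mimics meant to raise reprogramming efficiency. The HAC-derived lines share this treatment and the ES lines do not. F-B1 was obtained from 2-B1, F-C5 from 2-C6, F-E4 from 2-E and F-N7 from 2-N after loss of iHAC2, so each iHAC-free line shares its origin with its parent. ES and iPS cells were grown with LIF on MEF feeder cells that had been stopped from dividing, so the RNA of a culture may include feeder RNA, and the MEF and 20D17 groups are 1 sample each. Each of the other samples is a separate line or clone, so the spread within a group is the spread between lines.

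Primitive endoderm is the extraembryonic layer that separates from the epiblast in the blastocyst, and it gives rise to parietal and visceral endoderm. Gata6, Gata4, Sox17 and Sox7 are transcription factors of this layer, Pdgfra is its receptor for platelet-derived growth factor, and Dab2 is an endocytic adaptor needed in visceral endoderm. Foxa2, Sox17, Gata4 and Hnf4a also act in embryonic endoderm and its derivatives, and Afp, alpha-fetoprotein, is secreted by visceral endoderm and foetal liver. ES and iPS cultures kept with LIF can contain a small number of cells that express such genes.

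Each level below is the log2 signal of a probe minus the 75th percentile of its array, so 0 is a signal as bright as that percentile and levels of different probes are not compared. A gene was counted by its leading probe, the brightest on average. The software's flag for a signal well above background was absent for both Gata4 probes and all 3 Hnf4a probes on all 16 arrays, so no level is given for these 2 genes. The other 7 genes, with 14 probes, entered the fit, and the plot of their levels on the 16 arrays shows them. The arrays were less sensitive for the iHAC2-iPS clones: 53.7% to 59.4% of probes were well above background there, against 58.9% to 65.0% on the others, so the ranges overlapped in 2-E and F-C5. All iHAC2-iPS and iHAC-free arrays belong to a second scan session, so session and vector cannot be told apart in comparisons with the other groups.

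**Figure D1:**
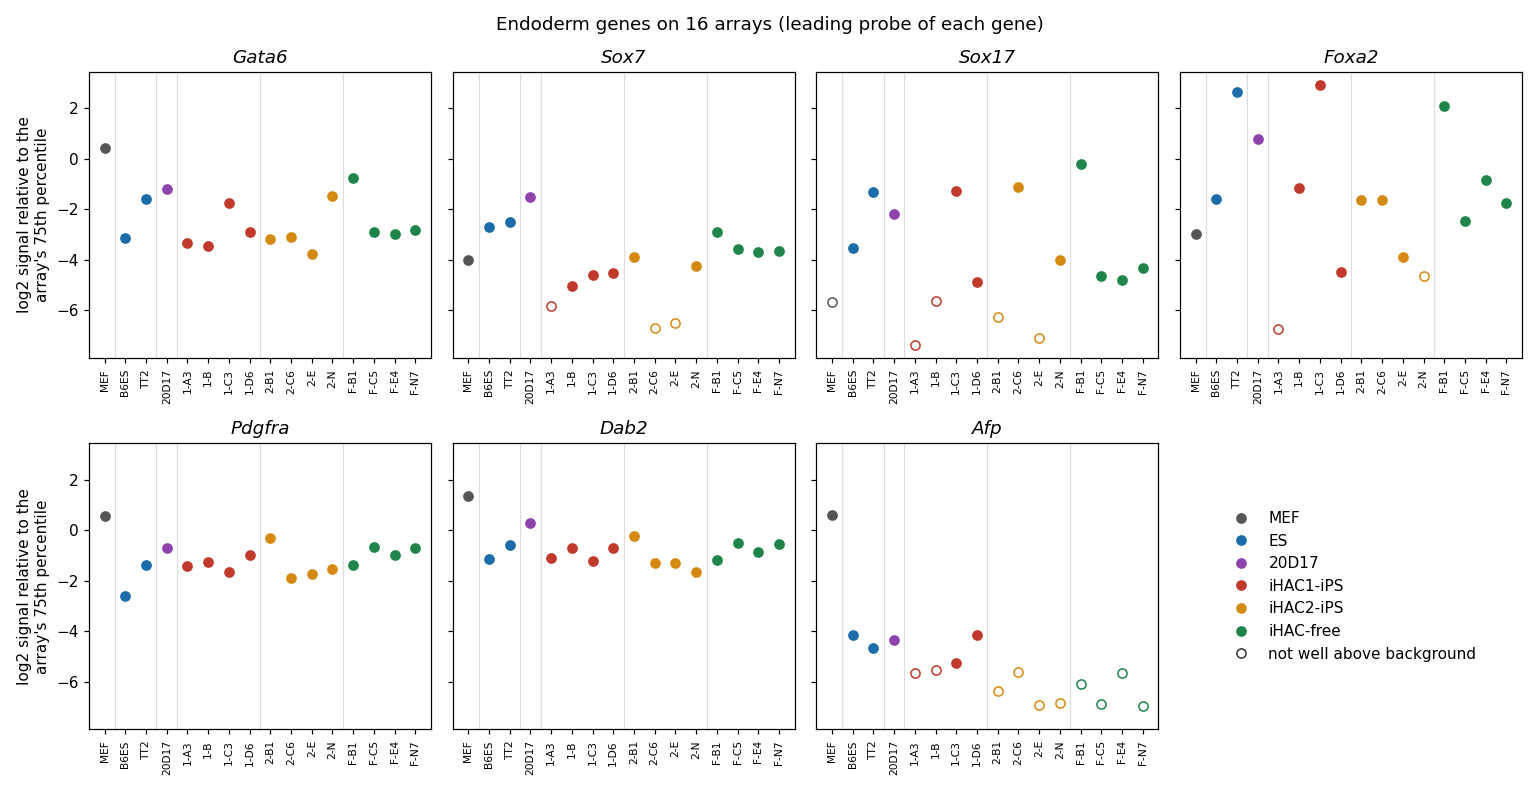
Levels of the 7 tested genes by sample (vertical axis: log2 signal relative to the array's 75th percentile; 1 point per array; open points: not well above background). Foxa2 and Sox17 spread widely within each iPS group, with TT2, 1-C3 and F-B1 high for both, whereas Pdgfra and Dab2 vary less and are highest in MEFs.

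Foxa2, a forkhead transcription factor of embryonic endoderm, node and floor plate, differed more between lines of the same kind than between kinds. In ES cells its level was -1.58 in B6ES and 2.64 in TT2, and it was 0.77 in 20D17 and -2.97 in MEFs. In iHAC1-iPS clones it was -6.73 in 1-A3, where it was not well above background, -1.16 in 1-B, 2.93 in 1-C3 and -4.47 in 1-D6. It was -1.61 in 2-B1, -1.62 in 2-C6, -3.90 in 2-E and -4.62 in 2-N among iHAC2-iPS clones, the last not well above background, and 2.09 in F-B1, -2.46 in F-C5, -0.84 in F-E4 and -1.74 in F-N7 among iHAC-free lines. Thus 1 line stood high in ES cells, in iHAC1-iPS cells and in iHAC-free cells, while all 4 iHAC2-iPS clones lay below both ES lines, 2 of them only just. The SD over the 4 iHAC1-iPS clones was 4.20 on the log2 scale, and only 4 of 31387 tested probes had a larger one (the median over all of these probes was 0.271). The TT2 level exceeded the B6ES level by 4.22, and 33 probes differed by more between these lines. No comparison of groups called Foxa2: in the limma fit iHAC1-iPS cells lay 2.89 ± 2.24 (SE, n = 4 against 2) below ES cells (adjusted p = 0.396) and iHAC2-iPS cells lay 3.47 ± 2.24 below (adjusted p = 0.309). Foxa2 is measured by 10 spots on each array, and their mean was used.

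Sox17, an SRY-box transcription factor of primitive and definitive endoderm, followed the same lines in part. With its leading probe it was at -3.53 in B6ES, -1.32 in TT2, -2.20 in 20D17 and -5.68, not well above background, in MEFs. In iHAC1-iPS clones 1-C3 was at -1.27 and 1-D6 at -4.87, and 1-A3 and 1-B were not well above background. In iHAC2-iPS clones 2-C6 was at -1.10 and 2-N at -4.02, and 2-B1 and 2-E were not well above background. In iHAC-free lines F-B1 was at -0.22, and the other 3 lay between -4.81 and -4.34. So a single clone stood above the rest in each of the 3 HAC-derived groups, and no comparison of groups called Sox17 (limma adjusted p between 0.384 and 0.941).

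The 4 probes named Sox17 did not agree in every line. A second probe, on the same strand, was also high in TT2 (-2.25), 1-C3 (-2.02) and F-B1 (-1.24), but in 2-C6, where the leading probe was at -1.10, it lay at -5.76 and was not well above background. The high value of 2-C6 therefore rests on the leading probe alone. Another probe is on the opposite strand of chromosome 1, was designed to a cDNA clone, and was well above background on 1 array only, at -1.38 in 2-E, where both probes above were not. The fourth probe was not well above background on any array. The sequences of the second probe and the opposite-strand probe, on mm9 as in the files, show which stretches gave these values:
A_51_P273667 (chr1:4481890-4481949, minus strand): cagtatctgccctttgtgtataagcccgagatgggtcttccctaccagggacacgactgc
A_52_P1180325 (chr1:4488752-4488811, plus strand): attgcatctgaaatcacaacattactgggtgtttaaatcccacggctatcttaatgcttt
The first of these 60-base probes has 55.0% G or C and 2 reading frames without a stop codon, and the second has 36.7% and 1 such frame. The files give no exon or UTR for either stretch.

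**Figure D2:**
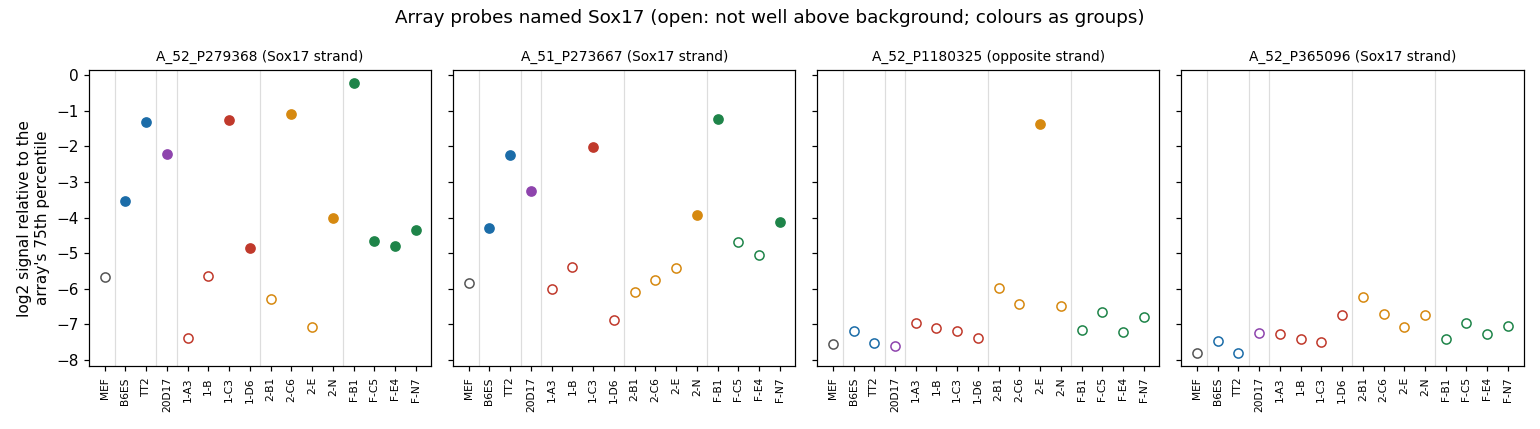
Levels of the 4 probes named Sox17 by sample (vertical axis: log2 signal relative to the array's 75th percentile; 1 point per array, coloured by group in the order MEF, ES, 20D17, iHAC1-iPS, iHAC2-iPS, iHAC-free; open points: not well above background). The first 2 probes share their high lines except 2-C6, and the opposite-strand probe is high in 2-E only.

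Gata6, the GATA factor that marks primitive endoderm precursors, was well above background on all 16 arrays with its leading probe. Its level was 0.45 in MEFs, -3.14 in B6ES, -1.59 in TT2 and -1.20 in 20D17. It was -3.35, -3.45, -1.74 and -2.88 in 1-A3, 1-B, 1-C3 and 1-D6, then -3.16, -3.09, -3.77 and -1.49 in 2-B1, 2-C6, 2-E and 2-N. In iHAC-free lines it was -0.76 in F-B1 and between -2.97 and -2.83 in the other 3. The 3 HAC-derived groups and the ES cells overlapped, and the MEF sample was above them all. Against ES cells the iPS groups differed by -0.48 (iHAC1-iPS), -0.51 (iHAC2-iPS) and 0.01 (iHAC-free) on the log2 scale, each with an SE of 0.77 and none called. The other 2 Gata6 probes were dimmer, well above background on 9 and 3 arrays, and the first of them gave the same level, -4.17, in B6ES and TT2.

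Foxa2, Sox17 and Gata6 were the 3 of the 7 tested genes that were higher in TT2 than in B6ES, highest in 1-C3 among iHAC1-iPS clones and highest in F-B1 among iHAC-free lines, with their leading probes. The second Gata6 probe did not follow this order, with 1-D6 at -3.60 above 1-C3 at -4.78. These lines were singled out after their levels were seen, so this is a description. Over all 31387 tested probes 833, or 2.65%, had that order. Of genes known in the primitive streak and anterior endoderm it was met by 4 of the 11 tested endoderm transcription factors (Eomes, Gsc, Mixl1 and Lhx1) and by 4 of 8 anterior and definitive endoderm signals with a level on every array (Cer1, Dkk1, Nodal and Trh), but by 0 of 13 parietal endoderm and basement membrane genes. Some met it narrowly: Nodal was at 3.21 in TT2 against 3.04 in B6ES, and Trh at 3.61 in 1-C3 against 3.54 in the next iHAC1-iPS clone. Cer1, which encodes a secreted antagonist of Nodal and BMP, was at -1.40 in TT2 and not well above background in B6ES. Its level was -0.15 in 1-C3 against -4.25 in the next iHAC1-iPS clone, and 0.18 in F-B1 against -3.64 in the next iHAC-free line. Lhx1, a LIM-homeobox factor of the anterior primitive streak, was at -0.23 against -3.74, 0.69 against -3.32 and 1.47 against -2.86 in the same pairs. T, the brachyury factor of nascent mesoderm, was at -0.90 in TT2 against -3.29 in B6ES and at -0.27 in 1-C3 against -3.71 in the next clone, and met the order as 1 of 4 such genes among 10 early mesoderm and cardiac markers.

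The genes with the profile most like each of these 3 over the 16 arrays were picked by the root mean square of the log2 difference between centred profiles. There were 26757 or 26758 candidate probes of other genes. For all such profiles, dim values were set at the lowest level above background on their array, or kept where higher. For Foxa2 they were Cyp26a1, the retinoic acid hydroxylase (0.743), the Wnt target Sp5 (0.90) and T (1.03), against a median of 2.52 over candidates. Cyp26a1 lay at -2.85 in B6ES, 0.25 in TT2, 0.81 in 1-C3 and 0.73 in F-B1. For Sox17 they were Wnt3 (0.917), Evx1 (0.932) and Grrp1 (0.961), with a median of 1.81. For Gata6 they were Cap2 (0.656), Gsta1 (0.662) and Axin2, a target and inhibitor of Wnt signalling (0.668), with a median of 1.26.

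The iHAC-free lines can be set beside their own parents. F-B1 exceeded 2-B1 by 3.70 for Foxa2, 6.06 for the leading Sox17 probe and 2.41 for Gata6, although Sox17 in 2-B1 was not well above background and that difference depends on a dim value. The second Sox17 probe gave 4.86 for the same pair, also against a dim value in 2-B1. F-E4 exceeded 2-E by 3.07 for Foxa2 and F-N7 exceeded 2-N, where Foxa2 was not well above background, by 2.88, whereas F-C5 was 0.85 below 2-C6. For Gata6 the other 3 pairs gave 0.21, 0.81 and -1.34, and for Sox17 they gave -3.56, 2.27 and -0.32, of which 2.27 is against a dim value in 2-E. Only Sox7 was higher in the derived line in all 4 pairs, by 0.98, 3.15, 2.84 and 0.60. Of these, 3.15 and 2.84 are against 2-C6 and 2-E, where Sox7 was not well above background, so their size depends on dim values. In the limma fit 0 of the 7 genes were called between iHAC2-iPS and iHAC-free cells (background 0.815% of 31415 probes called). An unadjusted limma p under 0.05 was met by 1 leading probe, that of Sox7, and by 18.3% of all tested probes. Sox7 differed by -1.89 ± 0.58 (SE, n = 4 against 4, limma adjusted p = 0.139). Within slides, with 2 lines of each kind, that Sox7 difference was -0.79 on slide 3 and -2.99 on slide 4.

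**Figure D3:**
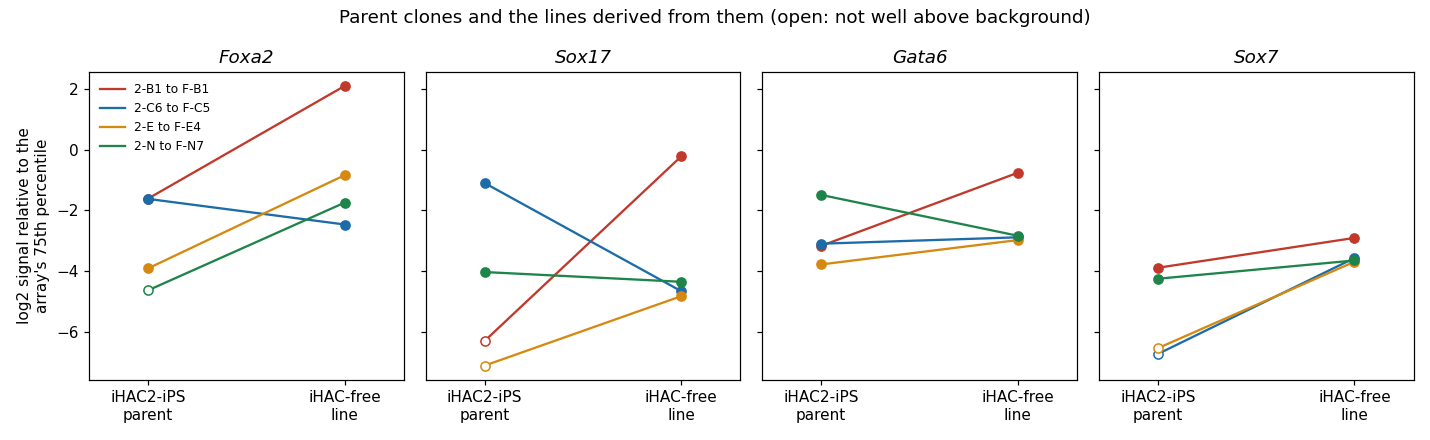
Levels in the 4 iHAC2-iPS parents and the iHAC-free lines derived from them (vertical axis: log2 signal relative to the array's 75th percentile; each line joins a parent to its derived line; open points: not well above background). Foxa2, Sox17 and Gata6 change most between 2-B1 and F-B1, and Sox7 is higher in each of the 4 derived lines.

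Sox7, the SRY-box relative of Sox17 that is active in primitive and parietal endoderm, was the one transcription factor of the 9 genes that was called between iPS and ES cells. It lay at -2.69 in B6ES, -2.49 in TT2 and -1.52 in 20D17, and at -3.99 in MEFs. It was at -5.82 (not well above background), -5.02, -4.59 and -4.53 in 1-A3, 1-B, 1-C3 and 1-D6. It was at -3.88 in 2-B1 and -4.24 in 2-N, and in 2-C6 and 2-E it was not well above background. In iHAC-free lines it was at -2.90, -3.56, -3.68 and -3.64. The iPS clones that held a HAC vector thus lay below both ES lines without overlap, the iHAC-free lines lay between them and the ES lines, and the iHAC1-iPS and iHAC2-iPS clones overlapped each other.

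Among the 7 genes, 1 was called between iHAC1-iPS and ES cells (background 14.3% of all probes) and 2 between iHAC2-iPS and ES cells (background 6.8%), where called means an adjusted p under 0.05 and at least a 2-fold difference. Sox7 fell by 2.40 ± 0.71 on the log2 scale (SE, n = 4 against 2) in iHAC1-iPS cells (limma adjusted p = 0.0326) and fell by 2.75 ± 0.71 in iHAC2-iPS cells (limma adjusted p = 0.0319). These calls were close to the threshold. Without B6ES the adjusted p for iHAC1-iPS cells was 0.149, without TT2 0.145, without 1-A3 0.0767 and without 1-B 0.0529, and for iHAC2-iPS cells it was 0.147 without B6ES, 0.16 without TT2 and 0.065 without 2-E. On the 1 slide that held both kinds, 1-D6 lay 1.94 below the ES lines, and with slide as a block the adjusted p was 0.137. With another background correction (normexp) the differences were -0.77 and -0.83, under the 2-fold limit, so neither was called. The second Sox7 probe, designed to a cDNA clone, was well above background on 3 arrays only (TT2, 20D17 and F-B1). In the main fit it was not called, with differences of -0.35 for iHAC1-iPS and -0.85 for iHAC2-iPS cells. It was called for iHAC1-iPS cells with slide as a block, which rests on 1-D6 alone (-1.86). For iHAC2-iPS cells it was called with quantile normalisation (-1.55, limma adjusted p = 0.0433). Both calls rest on dim values in the iPS clones. The profile of the leading Sox7 probe over the arrays was close to those of Hsd17b11 (0.397) and Rimbp2 (0.452), against a median of 1.14 over candidates.

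**Figure D4:**
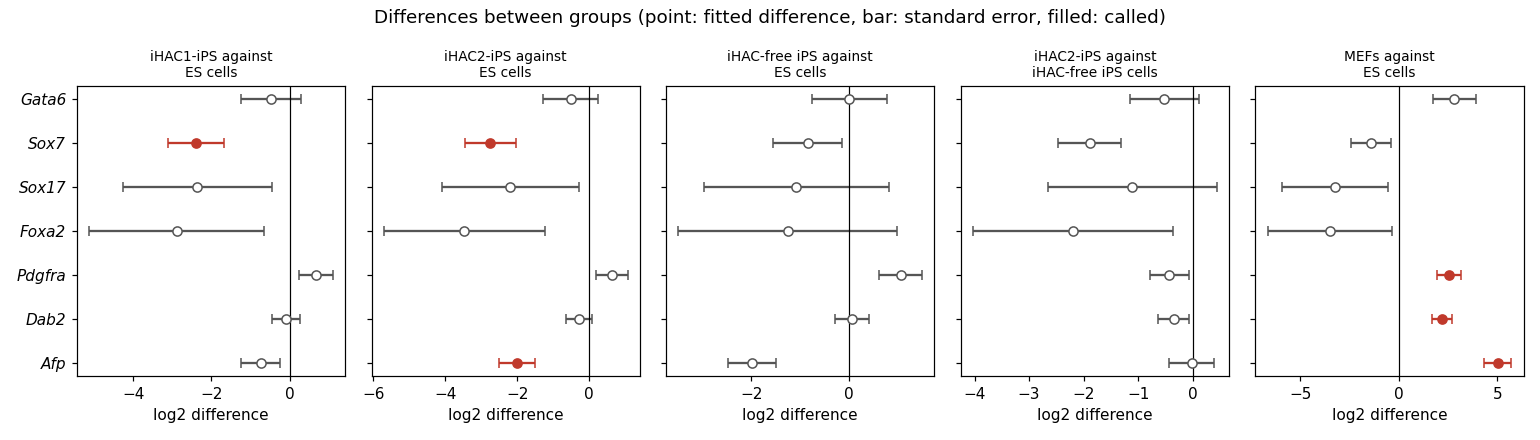
Fitted differences of the 7 genes in 5 comparisons (horizontal axis: log2 difference, first group minus second, with its own scale in each panel; points: fitted difference of the leading probe; bars: SE; filled red: called). Sox7 lies below ES cells in iHAC1-iPS and iHAC2-iPS cells, and the SEs of Foxa2 and Sox17 are the widest in each panel.

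Between iHAC-free and ES cells 0 of the 7 genes were called by limma (background 0.363%). An unadjusted limma p under 0.05 was met by 2 leading probes, those of Pdgfra and Afp, and by 20.3% of all tested probes. The median difference over the 7 genes was -0.85, that of Sox7, against 0.03 over all tested probes. Of the 7 genes 3 were higher and 4 lower, from -1.99 for Afp, dim on all iHAC-free arrays, to 1.06 for Pdgfra, so the genes did not shift together. Sox7 in iHAC-free lines lay 0.85 ± 0.71 below ES cells (adjusted p = 0.523) although the levels did not overlap. Between iHAC1-iPS and iHAC2-iPS cells 1 gene was called (background 20%), and between iHAC1-iPS and iHAC-free cells 1 gene was called (background 20.1%), in both cases Afp. Sox7 in iHAC1-iPS clones lay 1.54 ± 0.58 below the iHAC-free lines, with an adjusted p of 0.0553 in the same limma fit. These comparisons share their groups and are not independent of each other.

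Afp was the one product gene among the 9, and it was bright in MEFs and dim elsewhere. Its level was 0.59 in MEFs, -4.15 in B6ES, -4.67 in TT2 and -4.36 in 20D17. In iHAC1-iPS clones it was at -5.26 in 1-C3 and -4.17 in 1-D6 and not well above background in the others, and it was not well above background in any of the 8 iHAC2-iPS and iHAC-free lines. MEFs were therefore highest, 1-D6 lay among the ES lines and 20D17, and most other iPS clones were at or near the limit of the array. The call between iHAC2-iPS and ES cells (limma adjusted p = 0.0268) came with a measured bound of at least 1.24-fold lower only, since the lowest level that could be called above background on the iHAC2-iPS arrays was -5.03 to -4.29. That call had an adjusted p of 0.18 without B6ES, 0.101 without TT2 and 0.0591 without 2-E. Against iHAC-free cells iHAC1-iPS clones, 2 of which were themselves not well above background, had at least 1.08-fold more Afp by their mean (adjusted p = 0.0299, and 0.486 with dim values set at the lowest level above background), and against iHAC2-iPS clones no bound above 1 could be given and the levels overlapped. Both of these calls needed single lines: without 1-D6 the adjusted p was 0.0878 and 0.0819, and it also passed 0.05 without F-C5 (0.0836), F-N7 (0.0882), 2-E (0.0726) or 2-N (0.0706). The profile of Afp was most like those of Gria1 (0.384), Popdc2 (0.411) and Bhlhe22 (0.434).

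Against fibroblasts the order was different, as MEFs carried the highest level of Gata6, Pdgfra, Dab2 and Afp on any array. Between MEFs and ES cells 3 of the 7 genes were called (background 28.9%), all higher in MEFs. Afp was higher by 5.01 ± 0.70 (SE, n = 1 against 2, adjusted p = 0.000396), Pdgfra by 2.55 ± 0.62 (adjusted p = 0.00817) and Dab2 by 2.21 ± 0.50 (adjusted p = 0.00545) in the limma fit, where the lone MEF sample was taken to vary like the other groups. Without B6ES the Pdgfra difference was 1.94 with an adjusted p of 0.0546. Gata6 was higher by 2.82 ± 1.08 with an adjusted p of 0.0625, and 0.0472 without TT2. Between iHAC1-iPS cells and MEFs 4 genes were called (background 17.9%), all lower in iHAC1-iPS cells: Afp fell by 5.75 (limma adjusted p = 9.1e-05), Gata6 fell by 3.30 (adjusted p = 0.0316), Dab2 fell by 2.30 (adjusted p = 0.00367) and Pdgfra fell by 1.88 (adjusted p = 0.0314) on the log2 scale. The Gata6 call was lost without 1-A3 (0.054) or 1-B (0.0566) and the Pdgfra call without 1-C3 (0.0589).

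Pdgfra, the receptor, and Dab2, the adaptor, were well above background on all 16 arrays with their leading probes. Pdgfra lay at 0.55 in MEFs, -2.62 in B6ES, -1.39 in TT2 and -0.70 in 20D17, and the 12 HAC-derived lines lay between -1.91 and -0.32. Dab2 lay at 1.36 in MEFs, -1.13 in B6ES, -0.58 in TT2 and 0.29 in 20D17, with the HAC-derived lines between -1.67 and -0.25. In both cases 2-B1 was the highest of these 12 lines, and B6ES was the lowest array for Pdgfra. No comparison among ES and iPS groups called either gene, and the largest difference was that of Pdgfra, 1.06 ± 0.44 higher in iHAC-free than in ES cells (limma adjusted p = 0.201). F-B1, which was high for Foxa2, Sox17 and Gata6, was the lowest of the 4 iHAC-free lines for both Pdgfra (-1.40) and Dab2 (-1.20).

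Both genes are also expressed in fibroblasts, and fibroblast markers varied over the same cultures. All 17 fibroblast markers examined were well above background on all arrays, with none at or near background. Their mean level was 3.86 in MEFs, 1.03 and 2.23 in the ES lines, 2.67 to 3.44 in iHAC1-iPS clones, 1.24 to 2.85 in iHAC2-iPS clones and 2.19 to 2.79 in iHAC-free lines, and 20D17 exceeded both ES lines. Among the 15 arrays other than MEFs, which share scaling and array design, Pearson's r with this mean was 0.674 for Pdgfra and 0.579 for Dab2, but -0.101 for Gata6, -0.242 for Sox17 and -0.0729 for Foxa2, given as a description. B6ES had the lowest marker mean and the lowest Pdgfra level, and 2-B1 had the highest marker mean of the iHAC2-iPS clones. Not all arrays followed that order. B6ES ranked 11 of 16 for Dab2, and 1-A3 ranked 3 in marker mean (3.23) but 11 for Pdgfra (-1.43) and 10 for Dab2 (-1.12). In 2-N, with a marker mean of 1.24, Pdgfra (-1.54) lay above 2-E (-1.73) and 2-C6 (-1.91), whereas Dab2 was the lowest of all arrays. The part of feeder or unreprogrammed cells in the Pdgfra and Dab2 levels was not tested, and in whole cultures fewer cells of a type and less RNA per cell cannot be told apart. The profile of Pdgfra was most like those of B2m (0.29), the mesenchymal factor Prrx1 (0.304) and Tnfrsf11a (0.305), against a median of 0.872, and that of Dab2 most like Masp1 (0.265), Vasn (0.272) and Sgms2 (0.274), against 0.875.

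Each of these genes also has a dimmer probe upstream of the leading one. The second Pdgfra probe was well above background on 9 arrays and was highest in 2-E (-3.74) and F-C5 (-3.75). In 2-B1, which led the 12 lines with the first probe, it lay at -4.37, above MEFs at -4.52. It was not flagged as well above background in 2-B1, where the lowest level so flagged was -4.29, against -5.89 in MEFs. The second Dab2 probe, whose coordinates cover more than its own length, was well above background in MEFs (-4.08), TT2 (-5.15) and 20D17 only. It was not well above background in any of the 4 iHAC1-iPS clones. Their sequences show which part of each gene the weaker signal came from:
Pdgfra A_52_P264283 (chr5:75559613-75559672, plus strand): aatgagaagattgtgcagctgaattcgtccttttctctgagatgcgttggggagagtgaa
Dab2 A_52_P17534 (chr15:6374197-6374640, plus strand): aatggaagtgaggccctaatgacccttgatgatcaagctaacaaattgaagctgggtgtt

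Other endoderm genes were taken from lists. Over 11 tested endoderm transcription factors the median difference between iHAC1-iPS and ES cells was -0.83, against 0.04 over all tested probes. Of these 11, 0 were called up and 3 down in iHAC1-iPS cells relative to ES cells (background 14.3% of all probes). Among them were Foxa3, a relative of Foxa2, and Hhex, a homeobox factor of anterior endoderm, which fell by 1.89 ± 0.59 (limma adjusted p = 0.0391). Foxa3 was well above background in both ES lines and in none of the 4 iHAC1-iPS clones, at least 4.02-fold lower (adjusted p = 0.00123). Foxa3 and Hhex were also called lower in iHAC1-iPS than in iHAC2-iPS and iHAC-free cells. Of the 11, 0 were called by limma between iHAC2-iPS and ES cells (background 6.8%) or between iHAC-free and ES cells (background 0.363%). The 9 anterior and definitive endoderm signals had a median difference of -1.82 between iHAC1-iPS and ES cells. Of these signals, 0 were called up and 3 down in iHAC1-iPS cells (background 14.3%). They were Cldn6, a tight junction protein (fell by 4.83), Nodal, the TGF-beta ligand of mesendoderm (fell by 4.36), and the epithelial adhesion molecule Epcam (fell by 3.74).

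Of 14 tested visceral endoderm products and uptake genes, 1 was called up and 3 down in iHAC1-iPS cells relative to ES cells (background 14.3%). Cited1, a transcriptional coactivator, was higher by 2.14 ± 0.27, Amn and Lrp2, which belong to the endocytic machinery that works with Dab2, each fell by 2.13, and Apob was well above background in both ES lines and in none of the 4 iHAC1-iPS clones (at least 2.02-fold lower). Against iHAC-free cells 1 was higher and 7 lower, with a median of -1.08, where 20.1% of all probes were called. In iHAC2-iPS cells 2 were lower than in ES cells (background 6.8%), Lrp2 by 2.27 and the co-receptor Cubn by 1.71. Of 13 parietal endoderm and basement membrane genes, 4 were called higher and 2 lower in iHAC1-iPS cells relative to ES cells (background 14.3%). Those higher were Col4a1, Col4a2, Sparc and Plat, by 1.25 to 1.72. Those lower were the keratins Krt8, which fell by 4.34, and Krt18, which fell by 3.66. The 4 that were higher are also made by fibroblasts, 6 of the 17 fibroblast markers were called higher in the same comparison and 0 lower, and the part of such cells was not tested. Of 12 tested genes of FGF and PDGF signalling, 1 was called up in iHAC1-iPS cells relative to ES cells (background 14.3%): Pdgfrb, by 1.93 ± 0.51. In iHAC2-iPS cells 1 was called lower than in ES cells (background 6.8%): the receptor Fgfr2, which fell by 2.42 ± 0.61. Fgfr2 was also lower by 2.55 ± 0.50 in iHAC2-iPS than in iHAC-free cells (limma adjusted p = 0.0339, background 0.815%). In a fit of these groups alone with the lines paired by origin 0 probes were called, so that call was not kept there. Without the pairing the same groups alone gave 116 called probes. None of the genes in these lists was called between iHAC-free and ES cells by limma, where 0.363% of all probes were called.

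The labelled cell types were checked against pluripotent markers, of which 11 had a probe used here. All 11 were well above background in both ES lines, in 20D17, and in all iHAC2-iPS and iHAC-free lines, and 8 to 11 were so in iHAC1-iPS clones. In iHAC1-iPS clones 1 of the 11 was called higher and 7 lower than in ES cells (background 14.3%). Esrrb was well above background in 2 of the 4 clones, at -7.66 to -3.16 against 2.86 and 3.12 in ES cells, and Dppa3 in 1 of 4, while Pou5f1, which iHAC1 also carries, was at 6.38 to 6.74 against 3.58 and 4.05. The iHAC1-iPS clones thus differed from ES cells in markers of pluripotency as well as in Sox7 and Foxa3, and the part of these markers' change in the Sox7 result was not tested. Of 6 trophectoderm markers 0 were called up and 3 down in iHAC1-iPS cells relative to ES cells, and of 10 cardiac and early mesoderm markers 0 were called up and 4 down, where 14.3% of all probes were called.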

How the data were processed

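RNA from 16 cultures was hybridised by the authors to 1-colour (Cy3) Agilent arrays, read with Feature Extraction 10.7.1.1 or 10.7.3.1 and normalised in GeneSpring GX 11. Linear spot intensity was deposited as the scanner wrote it, background-subtracted and unscaled between arrays, with positions on mm9. A value table in log2 units, which the authors centred per probe, had column medians from -0.325 to 0.279 and was an alternative. Its scale matched the scanner values (slopes 1.000 to 1.0001) and its direction is that of the signal.

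Control spots and outlier spots were left out, spots of a probe were averaged, and log2 minus the array's 75th percentile was taken. The 31415 probes well above background on at least 1 array were compared in 1 fit of 6 groups with limma 3.58.1 in R 4.3.3 (lmFit, eBayes, Benjamini-Hochberg). The number of arrays limits the precision, and no spot was saturated. Bounds take the lowest level well above background on each dim array. The members and the gene lists were chosen with earlier results of these data known. All 9 genes are described, and from each list in each comparison at most the 3 called genes with the largest difference were named. Cer1, Lhx1, Lrp2 in iHAC1-iPS cells, Col4a1, Col4a2, Sparc, Dppa3, Pou5f1, Ttr, Apoc2 and Gata5 were chosen after their values were seen. For each tested gene the 3 genes of most similar profile were to be named. Some genes that these rules select are not reported here. Replicates are different lines. The 4 iHAC-free lines pair with their parents by origin, as the study's results report. Deviations from the group means correlated between -0.219 and 0.0799 within pairs. For a parent and a line of another origin they correlated between -0.105 and 0.216, so the arrays did not set the pairs apart. The fit was tested on simulated data of 31387 probes, 100 of them shifted by 2 in log2, 100 by 4 and the rest unshifted. Of the shifts of 2 it recovered 61.0% in the design of iHAC1-iPS and ES cells, and 71.0% in that of iHAC2-iPS and iHAC-free cells. The shifted probes were picked at random, so these shares do not give the recovery for widely spread genes such as Foxa2 and Sox17. Figures were drawn with matplotlib. Alternatives were the normexp background correction (offset 50), quantile normalisation, filters on dim probes, slide as a block, a fit of the compared groups alone, the mean over a gene's probes, dim values set at the lowest level above background, the value table, line of origin as a replicate block, and each array left out.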

Additional observations from a re-analysis of the deposited data

Results flagged for a closer look

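Within groups of 4 lines, 4 of 42 sets of levels held a value whose gap to the nearest other line, divided by the range, passed Dixon's critical value, and chance gives about 1 in 20, or 2.1 here. In iHAC-free cells F-B1 stood apart for Gata6 at -0.76, for Sox7 at -2.90 and for the leading Sox17 probe at -0.22. In iHAC2-iPS cells 2-E stood apart for the opposite-strand Sox17 probe at -1.38, against -6.48 to -5.99 in the other clones. That probe was well above background in 2-E alone and entered the fit only for that reason, so this flag follows from the filter. The 42 sets share lines and genes and are not independent, so the count of 4 beside 2.1 is a description. The retroviral line 20D17, a single sample in no tested comparison, was above both ES lines for 4 of the 7 genes: Gata6 at -1.20, Sox7 at -1.52, Pdgfra at -0.70 and Dab2 at 0.29. The share of all probes with 20D17 above both ES lines was not worked out, so this count has no background and is a description. The fibroblast marker mean of 20D17 was also above that of both ES lines, and the part of such cells in these levels was not tested.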

How the results depend on the processing

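Counts of the 7 genes called are small and moved with the setting, and the cause was not tested. With normexp the count was 0 in iHAC1-iPS and iHAC2-iPS against ES cells, and 0 in iHAC1-iPS against iHAC2-iPS and iHAC-free cells, where 2366, 933, 2614 and 2980 of all probes were called. Between iHAC1-iPS and ES cells it was also 0 with quantile normalisation, with slide as a fixed block (2441 of all probes) and with the mean over a gene's probes. Between iHAC2-iPS and ES cells it was 0 with the compared groups alone (20 of all probes) and 1 with dim values set at the lowest level above background (3570 of all probes). For iHAC1-iPS against iHAC2-iPS clones the count was 0 in both of these settings. With dim values so set the Afp difference, iHAC1-iPS minus iHAC2-iPS, reversed from 1.27 to -0.30 (limma adjusted p = 0.364). Between iHAC1-iPS and iHAC-free cells it was 2 with the strict filter, with the compared groups alone and with the mean over probes, which gave 2 between iHAC1-iPS cells and MEFs. Between iHAC-free and ES cells it was 1 with slide as a random block (697 of all probes). With 1 array left out it ranged from 0 to 1 for iHAC1-iPS against ES cells, from 0 to 2 for iHAC2-iPS against ES cells, from 0 to 0 for iHAC-free lines, whether set against ES cells or their iHAC2-iPS parents, from 0 to 1 for iHAC1-iPS against iHAC2-iPS and against iHAC-free cells, from 2 to 4 for MEFs against ES cells, and from 3 to 4 for iHAC1-iPS cells against MEFs. The MEF sample could not be left out. With line of origin as a replicate block (paired lines), in a fit of these groups alone, 0 genes were called between iHAC2-iPS and iHAC-free cells. Of 28356 probes 0 were called, against 116 in the same groups alone without the block. The main fit of all groups called 256 of 31415. In the blocked fit Sox7 differed by -1.89 (limma adjusted p = 0.314). Of 911 probe differences under another setting 20 lost a call, 14 gained one and 1 called difference reversed, and 860 kept their direction while 51 changed sign. The Afp and Dab2 leading-probe calls against MEFs held in every setting run. Normexp moved the median over all probes from -0.13 to -0.26 for MEFs against ES cells. Array sensitivity limits Afp, Sox7 and Sox17, which lie near background in many lines.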

Other observations

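The iHAC2-iPS clone 2-N was high for Ttr and Apoc2, products of visceral endoderm that were singled out after their values were seen, but not for Afp, which was not well above background there. Ttr, the thyroid hormone carrier transthyretin, lay at 0.21 in 2-N and was well above background on no other ES or iPS array. Apoc2, an apolipoprotein, lay at 0.21 in 2-N and 0.30 in 20D17, and between -3.44 and -2.27 in the other iHAC2-iPS clones. Of the 15 visceral endoderm products and uptake genes, 10 were well above background in 2-N, against 9 in each of 2-B1, 2-C6 and 2-E. Ttr and Apoc2 therefore do not stand for that list. Gata6 in 2-N, at -1.49, was the highest of the iHAC2-iPS clones, whereas Foxa2 there was not well above background. Gata5, a GATA factor of endoderm and heart, was well above background in 20D17 only, at -4.31.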
